A study of Pinus pinaster with 30 samples.

Results

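The comparison covers the start of cotyledon formation in zygotic embryos of *Pinus pinaster* (maritime pine), with embryos collected on Day11 (early cotyledonary, stage T4B) set against embryos collected on Day5 (pre-cotyledonary, stages T3 and T4). It rests on 6 of the 15 biological samples of the series, 3 a day, and on 12 of its 30 arrays. Members were chosen by the collection day in the labels, with the pair of technical replicate arrays of each sample averaged. Of the 26496 spots on the array, 19677 carried a deposited ratio on at least 1 array, and the 16901 with a value in at least 2 of the 3 samples on both days were compared.

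Each sample was total RNA from a pool of up to 60 dominant embryos. They were freed from the seeds of cones taken from open-pollinated plus trees in a clonal orchard, with 3 to 5 trees harvested on a date. No treatment was applied, so that collection day is the only difference between the groups that the labels give. Stage, date and trees moved together and cannot be told apart. Embryos of Day0 (early, T0 to T2), Day15 (cotyledonary, T5) and Day25 (mature, T7) made up the rest of the time course and entered the fit for its estimate of spread.

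The PtGen2 array carries cDNA clones from root and needle of a related species, *Pinus taeda* (loblolly pine), and none from embryos. Embryo RNA, amplified in sequential rounds, was labelled with Cy3 and hybridized with a Cy5-labelled pool of equal RNA from all 15 samples, with no dye swap. A value is therefore a log2 ratio of embryo over this pool. It orders samples for 1 spot but does not order genes, and a long cDNA spot can also bind transcripts of close family members. Whether a transcript is present cannot be read from a ratio to a pool that holds the same embryos, so the embryo label could not be checked against defining markers. The defining storage proteins of the seed are also made by both embryo and megagametophyte, the nutritive tissue around it. Over the 10 spots of storage and late embryogenesis abundant proteins measured in all 6 samples, the mean log2 ratio was between -0.43 and -0.37 on Day11 and between -0.71 and -0.43 on Day5. The part of surrounding tissue in the results was not tested.

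Cotyledons arise on the flank of the embryo apex, where groups of cells take on an organ fate, divide and then expand. In conifers several cotyledons form as a ring around the shoot meristem. The change involves transcription factors that set up organ primordia, hormone signalling, remodelling of the pectin-rich wall that lets cells grow, and a gradual turn of metabolism towards reserves. In a pool of whole embryos, fewer cells of a type and less RNA per cell cannot be told apart.

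Before the results, 1 sample has to be named. Day5 replicate 1 correlated with the other Day5 samples at 0.70 and 0.57 over the tested spots, and with the Day11 samples at 0.66, 0.67 and 0.60. The other Day5 samples correlated with each other at 0.78 and the Day11 samples among themselves at 0.72 to 0.83. Day5 replicate 3 lay farthest from Day11, at 0.29 to 0.32. Technical replicate arrays of these 6 samples correlated at 0.87 to 0.91. The samples held 16529 to 17860 values each, and the number of arrays limits the precision. Of the spots called at least 2-fold below, 25.2% had no value in Day5 replicate 1, against 10.1% of all tested spots, and 15.3% had none in Day11 replicate 3, against 9.67%. The part of these missing values in the calls was not tested. P-values measure the spread between pools of embryos, since nothing in the labels ties a pool to trees of its own.

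Most transcripts stood at a similar level on both days. The median difference of Day11 minus Day5 was -0.002 on the log2 scale, 90% of the spots lay between -0.52 and 0.57, and 98.6% were within 2-fold. With a limma fit of day means and Benjamini-Hochberg adjustment over all tested spots, 302 spots (1.79%) passed an adjusted p of 0.05. Of these, 185 (1.09%) were up-regulated and 117 (0.692%) down-regulated on Day11. A change of at least 2-fold was also required for 111 spots (0.657%), 66 up-regulated (0.391%) and 45 down-regulated (0.266%). In 110 of the 111 no Day11 sample overlapped a Day5 sample, which held for 37.3% of all tested spots. At an unadjusted p of 0.05, 3312 spots (19.6%) passed.

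The number of calls depended on single samples. The 2-fold calls numbered 272 without Day5 replicate 1, 15 without Day5 replicate 2 and 4 without Day5 replicate 3. They numbered 20 without Day11 replicate 1, 5 without Day11 replicate 2 and 23 without Day11 replicate 3. Leaving out Day5 replicate 1 raised the number of calls generally, to 824 of 15137 tested spots (5.44%), 3.36% higher and 2.08% lower on Day11. Of the 1622 of these spots with a gene name, 17.2% were then called, 11.7% higher and 5.55% lower, and counts of list members called in that setting are to be read against these shares. The sign of a difference was not put to a test by these 6 settings. In 110 of the 111 spots the days did not overlap, so leaving out a sample could not change the sign. All of the 111 spots kept their sign in each of these 6 settings that could still test them, which were between 77 and 103 spots. Of the 103 testable without Day5 replicate 1, 98 were called at least 2-fold there too. Of the 51 called spots named under the rule for named genes, 45 of 46 testable ones passed without Day5 replicate 1, 9 of 38 without Day5 replicate 2 and 3 of 35 without Day5 replicate 3. The same spots passed in 14 of 44 without Day11 replicate 1, in 4 of 41 without Day11 replicate 2 and in 14 of 46 without Day11 replicate 3. A call below that holds in all of these that could test it is named as such. Spots with missing values could be tested in fewer of them.

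**Figure D1:**
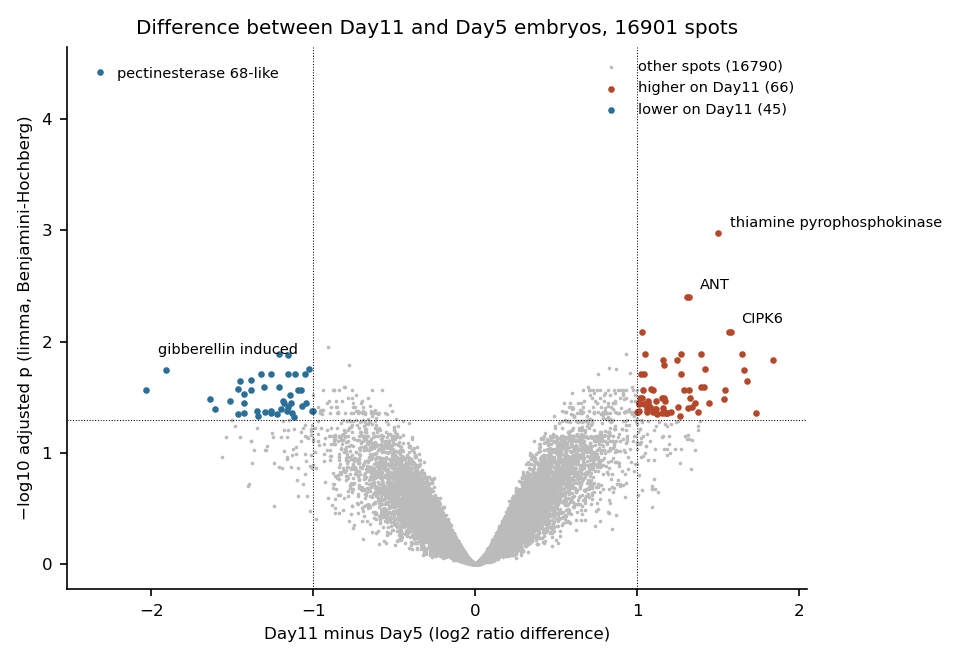
Difference of Day11 minus Day5 (log2, horizontal axis) against the adjusted p (limma, as -log10, vertical axis) for 16901 spots, 1 point each. The 66 spots higher and 45 lower on Day11 by at least 2-fold lie beyond the dotted lines, and the pectinesterase 68-like spot stands alone at the upper left.

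The transcript with the lowest adjusted p, and also the largest fall, encoded a pectinesterase 68-like protein (spot 7.4.19.14). Pectinesterases remove methyl groups from pectin and so alter the stiffness and adhesion of the wall. Its log2 ratio was -2.13, -2.05 and -2.31 in the Day11 samples and 0.25, 0.06 and 0.15 in the Day5 samples. The groups lay far apart, and the 3 samples of each day lay close together. The difference was -2.31 (SE 0.16, limma adjusted p = 3.75e-05), a 4.97-fold fall, and it was called in all 28 alternative settings, with differences of -2.57 to -2.23. A second spot of the same *P. pinaster* unigene (8.3.10.3) was at -0.17 and -0.18 in 2 Day11 samples and at 0.47, 0.44 and 0.15 in the Day5 samples. It lay lower on Day11 as well, but by only -0.53, and did not pass the test (limma adjusted p = 0.0772). The pectinesterase 68-like spot averaged 2.03 on Day0, 0.15 on Day5, -2.16 on Day11, -2.23 on Day15 and -1.97 on Day25, so that it was already below its early level by Day5 and stayed low after Day11.

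No other pectinesterase spot passed the test in this direction. Of 11 pectinesterase spots tested, 1 was down-regulated, 1 up-regulated and 9 did not pass, with a median difference of -0.01. The up-regulated one encoded a pectinesterase/pectinesterase inhibitor 41-like protein (9.4.4.23), at 0.77, 0.69 and 0.73 on Day11 and -0.38, -0.58 and -0.34 on Day5. Its groups were separate, with a difference of 1.16 (SE 0.19, limma adjusted p = 0.0147). It passed without Day5 replicate 1 (1.19) but only in 2 of the 6 settings that left out a sample of these days.

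In the whole list of cell wall enzymes and proteins, these 2 spots were the only calls among 61 tested (3.28%, against 8.1% of tested spots with a gene name). The median of the list was -0.31, against -0.002 over all tested spots, and 13 members (21.3%) lay above 0, against 49.7% of all spots. Arabinogalactan proteins, wall glycoproteins of growing cells, had 7 tested spots, 6 below 0 and 1 above, and none passed. Next to the pectinesterase, the lowest values were those of a pair of proline-rich arabinogalactan protein 4 spots of the same unigene. Their differences were -1.53 (3.4.7.3) and -1.45 (3.1.17.7), both with a limma adjusted p of 0.0711. At the first, the Day11 samples were at -1.50, -1.91 and -1.94 and the Day5 samples at 0.30, -0.70 and -0.35, separate but widely spread on Day5. Day5 replicate 1 was the highest of its day at both spots. Without it the differences were -1.26 and -1.21 and did not pass (limma adjusted p = 0.118 and 0.116). Of 53 wall spots testable without Day5 replicate 1, 2 were up-regulated and 5 down-regulated (13.2% called, against 17.2% of all named spots in that setting). The added falls were an arabinogalactan protein (4.1.16.8, -1.20) and 3 spots of xyloglucan endotransglycosylases, enzymes that cut and rejoin wall xyloglucan (1.2.19.19, 6.1.5.19 and 5.4.15.19, at -1.22, -1.01 and -0.86). Of these enzymes, 6.1.5.19 is named XTH5 and the other spots XTH9. Further XTH9 spots, with differences of -1.50 to 0.15, and further XTH5 spots, with -0.71 to -0.08, were not called in that setting.

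**Figure D2:**
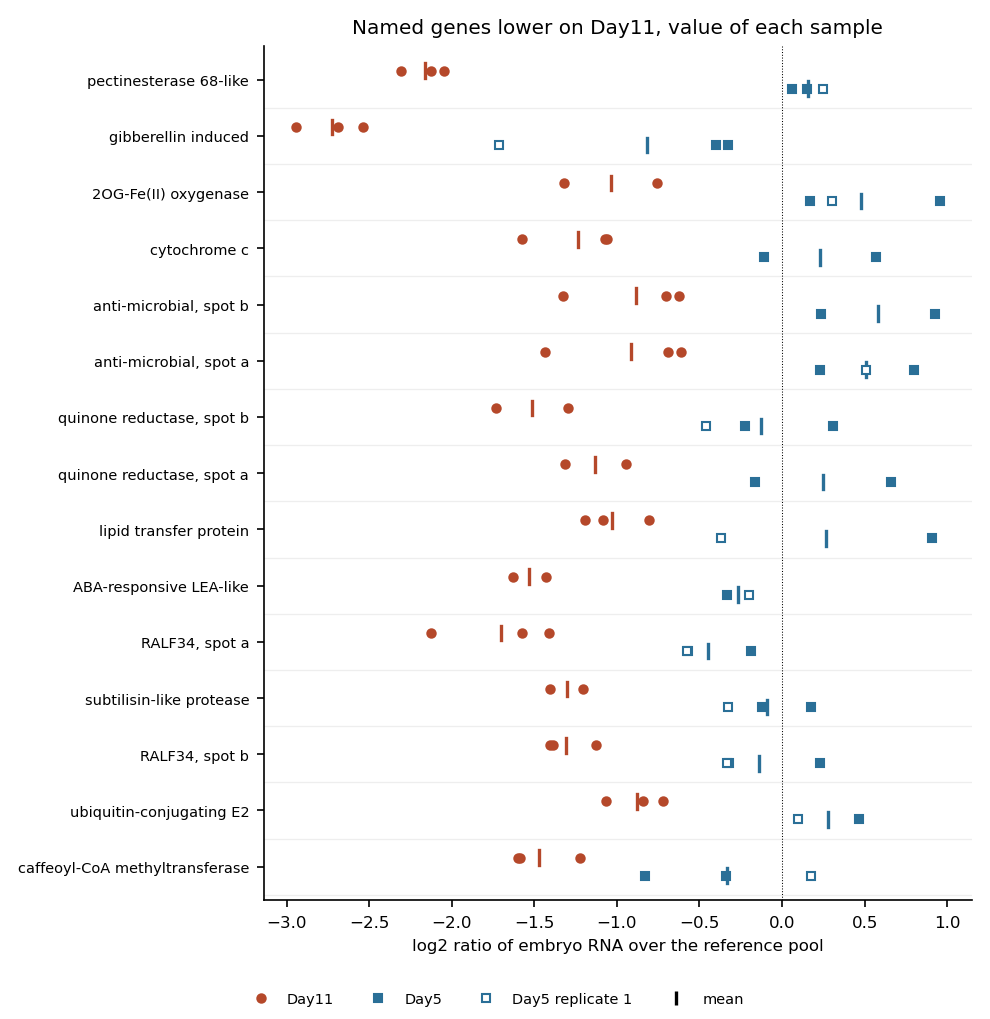
Log2 ratio to the pool (horizontal axis) of the 15 largest falls at 2-fold with separate samples and an informative name, ordered by the difference; points are samples (Day11 circles, Day5 squares, Day5 replicate 1 open) and bars are means. In every row the Day11 samples lie to the left of all Day5 samples, and the gibberellin induced spot shows Day5 replicate 1 at -1.72, between the Day11 samples and the other Day5 samples.

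A gibberellin induced protein (5.2.7.18) had the next largest fall among spots with an informative name. Such small cysteine-rich proteins are induced by gibberellin and have been tied to cell growth in other plants. It stood at -2.94, -2.54 and -2.69 on Day11, and at -1.72, -0.40 and -0.33 on Day5. The Day5 replicate 1 value lay well below its own day's other samples, yet above every Day11 sample. The difference was -1.91 (SE 0.32, limma adjusted p = 0.0181) with all samples and -2.36 without Day5 replicate 1 (limma adjusted p = 0.00113). Of the 5 settings that left out another sample of these days, none gave a call. Its mean was 1.08 on Day0, -0.81 on Day5, -2.72 on Day11, -3.02 on Day15 and -3.58 on Day25, the lowest of the 5 days at maturity.

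Transcripts of defence proteins and defence-like peptides formed the list with the most falls. Of 17 tested, 6 (35.3%) were down-regulated and none up-regulated, with a median of -0.34 and 4 members (23.5%) above 0. For comparison, 0.692% of all spots were called lower. Most gene names were available because a spot had changed at some stage, and over all 1827 tested spots with a name 8.1% were called, with a median of 0.08. That share, and not the 1.79% of all spots, is the nearer background for a list of named genes. Without Day5 replicate 1, 5 of the 17 were called lower (29.4%, against 5.55% of all named spots in that setting), and without any 1 of the other Day5 or Day11 samples 0 were.

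Both anti-microbial protein spots were down-regulated. At 1.3.22.10 the Day11 samples were at -1.44, -0.61 and -0.69 and the Day5 samples at 0.51, 0.23 and 0.80. At 7.4.2.18 the Day11 samples were at -1.33, -0.70 and -0.62, with 0.23 and 0.93 in Day5 replicates 2 and 3 and no value in Day5 replicate 1. Day11 replicate 1 was the lowest at both spots, and the days did not overlap. The differences were -1.43 (limma adjusted p = 0.0294) and -1.46 (limma adjusted p = 0.0449). The first averaged -0.31 on Day0 and reached its highest mean, 0.51, on Day5, before -0.91 on Day11, -1.95 on Day15 and -4.15 on Day25.

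RALF34, a small peptide of the rapid alkalinization factor family that acts as an extracellular signal in *Arabidopsis*, was down-regulated at both of its spots. Spot 9.1.13.18 was at -2.12, -1.57 and -1.41 on Day11 and -0.58, -0.57 and -0.19 on Day5, a difference of -1.26 (limma adjusted p = 0.0417). Spot 3.1.7.6 was at -1.41, -1.39 and -1.12 on Day11 and -0.33, -0.32 and 0.23 on Day5, a difference of -1.16 (limma adjusted p = 0.0417). All Day11 values lay below all Day5 values at both spots. All 4 spots of the RALF-like family had a difference below 0, of which these 2 passed.

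Chitinases, which cut chitin and are common defence proteins, had 6 tested spots, all below 0, and 2 of them passed. A basic endochitinase-like spot (4.4.22.2) was at -1.73, -1.53 and -1.67 on Day11 and -0.43, -0.76 and -0.51 on Day5, a difference of -1.08 (SE 0.20, limma adjusted p = 0.027). A class I chitinase spot (5.2.11.19) fell by 0.56 on the log2 scale (limma adjusted p = 0.0433) and was not called without any 1 of the 6 samples. Thaumatin-like proteins, another defence family, had 5 tested spots with differences of -0.22 to 0.34 and no call. The fall was thus measured for some defence families of the list and not for all.

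Further named falls fell into several roles. A cytochrome c spot (1.2.13.21), the electron carrier of respiration, was at -1.57, -1.07 and -1.06 on Day11 and at -0.11 and 0.57 in Day5 replicates 2 and 3, a difference of -1.46 (limma adjusted p = 0.0267). A pair of quinone reductase spots (9.2.17.23 and 5.2.21.4), flavoproteins that reduce quinones, differed by -1.39 and -1.38. The second of these was measured in only 2 samples a day, and it passed in all 23 alternatives that could test it, its largest adjusted p being 0.0499. None of these left out a sample of Day5 or Day11 in which it had a value. A ubiquitin-conjugating enzyme E2 (3.2.21.2) differed by -1.16 and a subtilisin-like serine protease (8.1.4.9) by -1.21. Ubiquitin-conjugating enzymes hand on ubiquitin to proteins, and subtilisin-like enzymes cleave proteins, many of them outside the cell.

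A lipid transfer protein (9.1.12.19) showed how far a call could lean on single samples. Its values were -1.19, -1.09 and -0.80 on Day11 and -0.37 and 0.91 in Day5 replicates 1 and 3, a pair far apart. The difference was -1.29 (limma adjusted p = 0.0428), and none of the 4 leave-outs among these days that could test it gave a call. A second spot of the same unigene (4.4.14.3) had a difference of -1.18 and did not pass (limma adjusted p = 0.0959), although it passed without Day5 replicate 1 (-1.53, limma adjusted p = 0.029). Lipid transfer proteins carry lipids to the cell surface. A caffeoyl-CoA O-methyltransferase of lignin precursor synthesis (4.2.3.20) was lower by -1.14, at -1.59, -1.23 and -1.60 on Day11 and 0.17, -0.83 and -0.34 on Day5, with no overlap.

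Among up-regulated genes, *AINTEGUMENTA* (ANT, 6.1.20.1) was called in every alternative setting. ANT is an AP2-domain transcription factor that in *Arabidopsis* promotes the growth of organ primordia, cotyledons included. Its log2 ratio was 0.07, -0.22 and 0.10 on Day11 and -1.09, -1.32 and -1.58 on Day5. All Day11 samples lay above all Day5 samples, and Day5 replicate 1 was the highest of its day. The difference was 1.31 (SE 0.16, limma adjusted p = 0.004), a 2.48-fold increase, and 1.43 without Day5 replicate 1 (limma adjusted p = 0.00185). Over the 28 alternative settings, all of which could test it, the difference was 1.19 to 1.57. Its mean climbed over the whole time course, from -1.86 on Day0 over -1.33 on Day5 and -0.02 on Day11 to 0.83 on Day15 and 0.86 on Day25.

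The 16 tested transcription factors of the study's own table, which the study chose on these samples, held no other call. Their median difference was 0.05. WRKY28 came nearest from below, at -0.94, -0.68 and -1.004 on Day11 and -0.12, -0.29 and -0.23 on Day5, a difference of -0.66 (limma adjusted p = 0.0546). The basic helix-loop-helix factors ILR3 and the AT1G12540 homologue were far below the pool on both days, ILR3 at -2.12, -1.76 and -1.70 on Day11 and -1.89, -2.02 and -1.88 on Day5. Their differences, 0.07 and 0.03, were smaller than their standard errors of 0.32 and 0.37. NF-YA9, a subunit of a CCAAT-binding factor, had a small difference of 0.37 with separate days (limma adjusted p = 0.101). The polarity genes KAN2, YAB2 and AS2, together with MYB4, ARF16, NARS2 and a PLATZ factor, had too few values for the test and are not compared here.

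**Figure D3:**
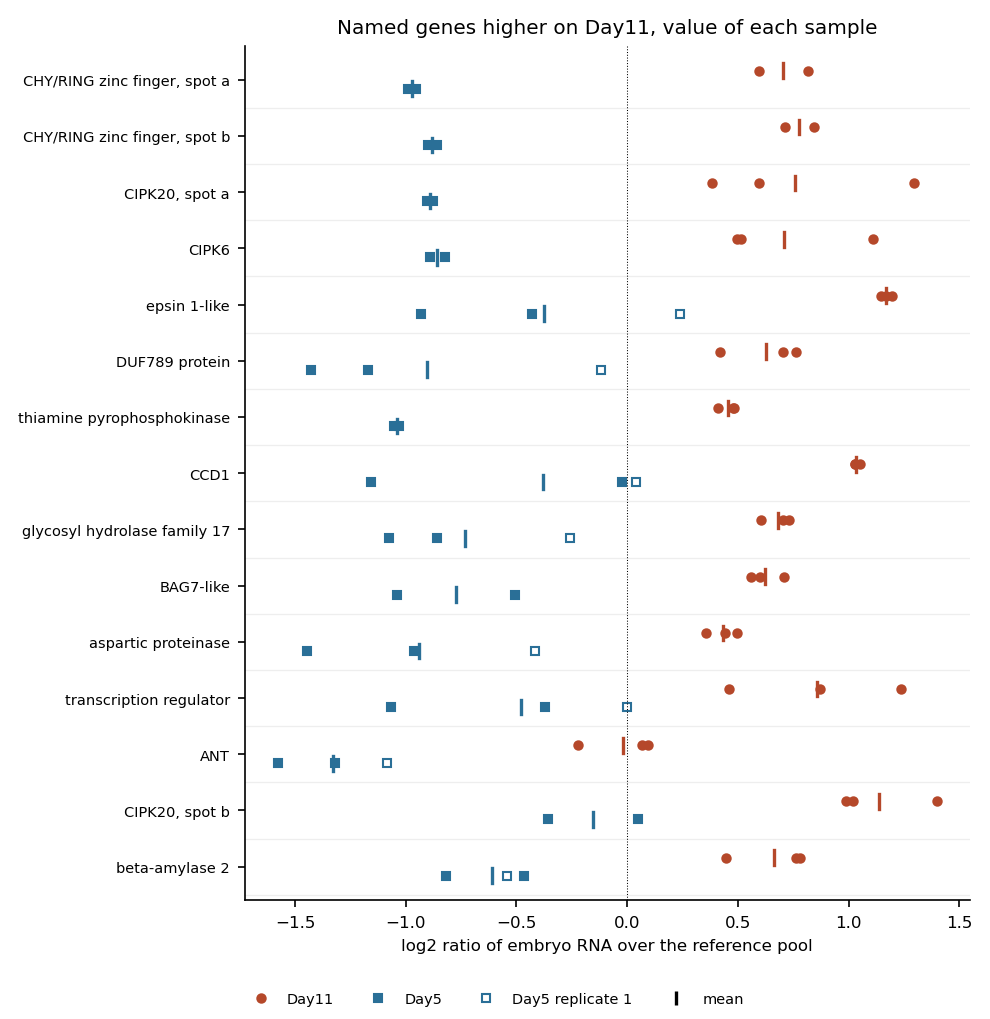
Log2 ratio to the pool (horizontal axis) of the 15 largest rises at 2-fold with separate samples and an informative name (a name reading only unknown function was left out), ordered by the difference; points are samples (Day11 circles, Day5 squares, Day5 replicate 1 open) and bars are means. In every row the Day11 samples lie to the right of all Day5 samples; rows with no open square had no value in Day5 replicate 1.

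Kinases that act with calcineurin B-like calcium sensors (CIPKs) were up-regulated at 4 of 7 spots. They are switched on by these sensors and regulate transporters and other targets. The other 3 did not pass, and the median of the 7 was 0.82. CIPK6 (6.3.16.13) was at 1.11, 0.50 and 0.52 on Day11, and at -0.89 and -0.82 in Day5 replicates 2 and 3, with no value in Day5 replicate 1. The groups were separate, and the difference of 1.57 (SE 0.21, limma adjusted p = 0.00809) was called in all 25 alternatives that could test it. It could not be tested without Day5 replicate 2 or 3.

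A CIPK20 spot (5.4.17.10) was at 1.30, 0.60 and 0.38 on Day11 and -0.91 and -0.88 in the same 2 Day5 samples, a difference of 1.65 (limma adjusted p = 0.0129). Another spot that the tables name both CIPK20 and CIPK22 (9.3.7.18) was at 0.99, 1.02 and 1.40 on Day11 and 0.05 and -0.36 on Day5, a difference of 1.29 (limma adjusted p = 0.027). At the CIPK6 and the first CIPK20 spot, Day11 replicate 1 was the highest sample. Another CIPK20 spot (6.1.18.3), measured in all 6 samples, rose by 0.82 (limma adjusted p = 0.0475). The 2 CIPK spots with values in 4 or 5 samples that stayed short of the threshold were near it in size, a CIPK23 spot (7.1.8.10) at 0.78 and a CIPK20 spot (7.4.8.2) at 0.81. A single CIPK spot was lower, at -0.26 (4.4.19.10, limma adjusted p = 0.26), and it is also named CIPK23, from another unigene. Days were separate at both CIPK23 spots, so the spots of that name did not move together.

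The CIPKs made up most of the calls in the list of CIPKs and calcium proteins, where 5 of 27 (18.5%) were up-regulated and none down-regulated, against 1.09% of all spots called higher and 8.1% of named spots called at all. The median of the list was 0.07. The fifth call was a BAG7-like protein (9.4.7.13), a calmodulin-binding co-chaperone in *Arabidopsis*, at 0.71, 0.56 and 0.60 on Day11 and -0.51 and -1.04 on Day5. Calmodulin 7 (2.2.23.2) had a difference of -0.53 and a calcium-binding CML25 spot (11.1.23.9) of -0.56, neither past the test. Of the 21 tested without Day5 replicate 1, 6 were called higher and 1 lower (33.3% called, against 17.2% of all named spots in that setting).

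Enzymes of isoprenoid metabolism had the highest median of all lists, 0.96. All 10 tested spots lay above 0, against 55.7% of named spots, and 3 were up-regulated (30%). Of named spots 8.1% were called at all. HMG-CoA reductase, the rate-limiting enzyme of the mevalonate pathway to sterols and terpenes, had 5 spots with differences of 0.80 to 1.18. The spot 2.4.19.9 was at 0.17, -0.04 and 0.06 on Day11 and -0.77, -1.10 and -1.48 on Day5, a difference of 1.18 (SE 0.27, limma adjusted p = 0.0433). The spot 12.2.19.21 was at -0.35, -0.18 and -0.12 on Day11 and -0.95, -1.15 and -1.59 on Day5, a difference of 1.01 (limma adjusted p = 0.0354). The other 3 did not pass, with limma adjusted p of 0.0512, 0.0774 and 0.0828. In all 5 spots the Day11 samples lay above the Day5 samples, and 37.3% of all tested spots had days without overlap in either direction. These spots may share transcripts, since the reductase is a family of similar sequences, and so do not count as 5 genes.

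The third isoprenoid call was carotenoid cleavage dioxygenase 1 (CCD1, 6.1.13.2), which cuts carotenoids into smaller scent and signal compounds. It was at 1.03, 1.03 and 1.05 on Day11 and 0.04, -0.02 and -1.16 on Day5, tight on Day11 and wide on Day5 because of replicate 3. The difference was 1.42 (SE 0.24, limma adjusted p = 0.0176), and it passed in 3 of the 6 settings that left out a sample of these days. A levopimaradiene/abietadiene synthase of resin acid formation (6.2.3.7) had a difference of 1.10 that did not pass (limma adjusted p = 0.17). With that day's replicate 1 left out, 4 of the 10 isoprenoid spots were called (40%, against 17.2% of all named spots in that setting), with the HMG-CoA reductase spot 8.4.2.3 added at 1.06.

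Starch and sugar enzymes had 6 up-regulated spots of 35 tested (17.1%, against 8.1% of named spots called at all), none down-regulated, and a median of 0.17. Beta-amylase 2 (3.4.11.15), of a family that releases maltose from starch, was at 0.45, 0.76 and 0.78 on Day11 and -0.55, -0.46 and -0.82 on Day5. Its groups were separate, the difference was 1.27 (SE 0.20, limma adjusted p = 0.0129), and it passed in 4 of the 6 settings that left out a sample of these days. The alpha subunit of pyrophosphate-dependent phosphofructokinase, a reversible enzyme of glycolysis, was up-regulated at both of its spots, by 1.12 (12.4.10.18) and 1.09 (4.3.19.5).

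The pair of enzymes that ferment pyruvate to ethanol also rose, pyruvate decarboxylase (2.3.23.5) by 0.85 and an alcohol dehydrogenase 1 spot (3.2.20.4) by 0.95. A second alcohol dehydrogenase 1 spot (1.2.4.17) stayed just outside the threshold at 0.63 (limma adjusted p = 0.0518). The list's sixth call was a protein with a DUF789 domain (1.3.8.4), which 1 table also names soluble starch synthase, so its place in the list is uncertain. It was at 0.70, 0.76 and 0.42 on Day11 and -0.12, -1.17 and -1.43 on Day5, and a second spot of its unigene (5.1.5.15) gave a difference of 1.74, against 1.53. At 1.74 it was larger than any rise with an informative name, its own entry giving no function. Day5 replicate 1 was the highest of its day at both spots. Without Day5 replicate 1, 6 starch and sugar spots were called higher and 2 lower of 34 tested (23.5% called, against 17.2% of all named spots in that setting).

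Thiamine pyrophosphokinase (10.1.8.16), which makes the cofactor that pyruvate decarboxylase and related enzymes need, had the lowest adjusted p among the rises. It was at 0.41, 0.48 and 0.48 on Day11 and -1.03 and -1.05 in Day5 replicates 2 and 3, with no value in replicate 1. The samples within a day were within 0.1 of each other. The difference was 1.50 (SE 0.14, limma adjusted p = 0.00106) and was called in all 25 alternatives that could test it, with values of 1.01 to 1.62. It could not be tested without Day5 replicate 2 or 3.

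Among spots with an informative gene name, the largest rises were those of 2 spots of CHY- and RING-type zinc finger proteins, 6.3.5.17 and 3.2.22.5, which are domains found in ubiquitin ligases. The first was at 0.60 and 0.81 on Day11 and -0.99 and -0.95 on Day5, a difference of 1.68 (limma adjusted p = 0.0225). The second was at 0.84 and 0.71 on Day11 and -0.90 and -0.86 on Day5, a difference of 1.66 (limma adjusted p = 0.0181). Neither had a value in Day5 replicate 1, and each was measured in 2 samples a day. The spots belong to different unigenes with the same *Arabidopsis* best match, so cross-hybridization between them cannot be told apart from 2 similar changes. Both were called in all 23 alternatives that could test them. None of these left out a sample of Day5 or Day11 in which the spot had a value.

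An epsin 1-like clathrin interactor (6.1.17.22), an adaptor of coated vesicles, was at 1.15, 1.20 and 1.17 on Day11 and 0.24, -0.43 and -0.93 on Day5. Its difference was 1.54 (limma adjusted p = 0.027), with Day11 samples close together and Day5 samples spread over more than 1 log2 unit. A family 17 glycosyl hydrolase (10.3.2.3), a family that includes callose-degrading glucanases, was at 0.61, 0.73 and 0.70 on Day11 and -0.26, -0.86 and -1.08 on Day5, a difference of 1.41. A nepenthesin-like aspartic proteinase (4.4.8.3) was at 0.36, 0.50 and 0.44 on Day11 and -0.41, -0.96 and -1.45 on Day5, a difference of 1.37. In all 3, Day5 replicate 1 lay nearest to the Day11 samples. Each of the 3 passed without Day5 replicate 1 and in none of the other settings that left out a sample of these days.

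Chromatin and small RNA genes came from a table that the study chose on these samples, so their direction is not independent evidence. Of 24 spots in it, 15 could be tested, 2 were up-regulated and none down-regulated, with a median of 0.30 and 12 spots (80%) above 0. That was 13.3% called, against 8.1% of all named spots, of which 55.7% lay above 0 with a median of 0.08. SUVH1, a histone methyltransferase of the SU(VAR)3-9 group (2.3.12.22), was at 0.85 and 0.86 in Day11 replicates 1 and 2 and 0.31, 0.11 and -0.21 on Day5, a difference of 0.79 (limma adjusted p = 0.0482). DAWDLE (DDL, 2.2.17.8), a forkhead-associated domain protein that aids microRNA processing in *Arabidopsis*, was at 0.31, 0.46 and 0.32 on Day11 and -0.01, -0.21 and -0.50 on Day5, a difference of 0.60 (limma adjusted p = 0.0402). Both had separate days and passed in only 1 of the settings that left out a sample of these days.

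The Argonaute AGO9 spot (1.4.19.11), of the proteins that carry small RNAs, was at 0.97, 0.85 and 0.66 on Day11 and 0.04, 0.12 and -0.39 on Day5, a difference of 0.91 that stayed outside the threshold (limma adjusted p = 0.0604). Dicer-like 1 (10.2.21.21), which cuts microRNA precursors, had a difference of -0.03 (SE 0.12) and overlapping days. The histone deacetylases HDA9, HDA2 and HD2C had differences of 0.30, 0.26 and -0.08, none past the test. The Polycomb histone methyltransferase CLF was at 0.52, 0.07 and 0.09 on Day11 and 0.25, -0.22 and -0.10 on Day5, which overlap. DDM1, HDA8, HYL1, VIM1, FCA, ASHH2 and 1 AGO1 spot were among the 9 members without enough values. Outside that table, a 5-methylcytosine DNA glycosylase spot (7.2.10.13), of enzymes that remove methylated cytosine, rose by 1.08 (limma adjusted p = 0.0389), and it was picked after its values were seen.

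**Figure D4:**
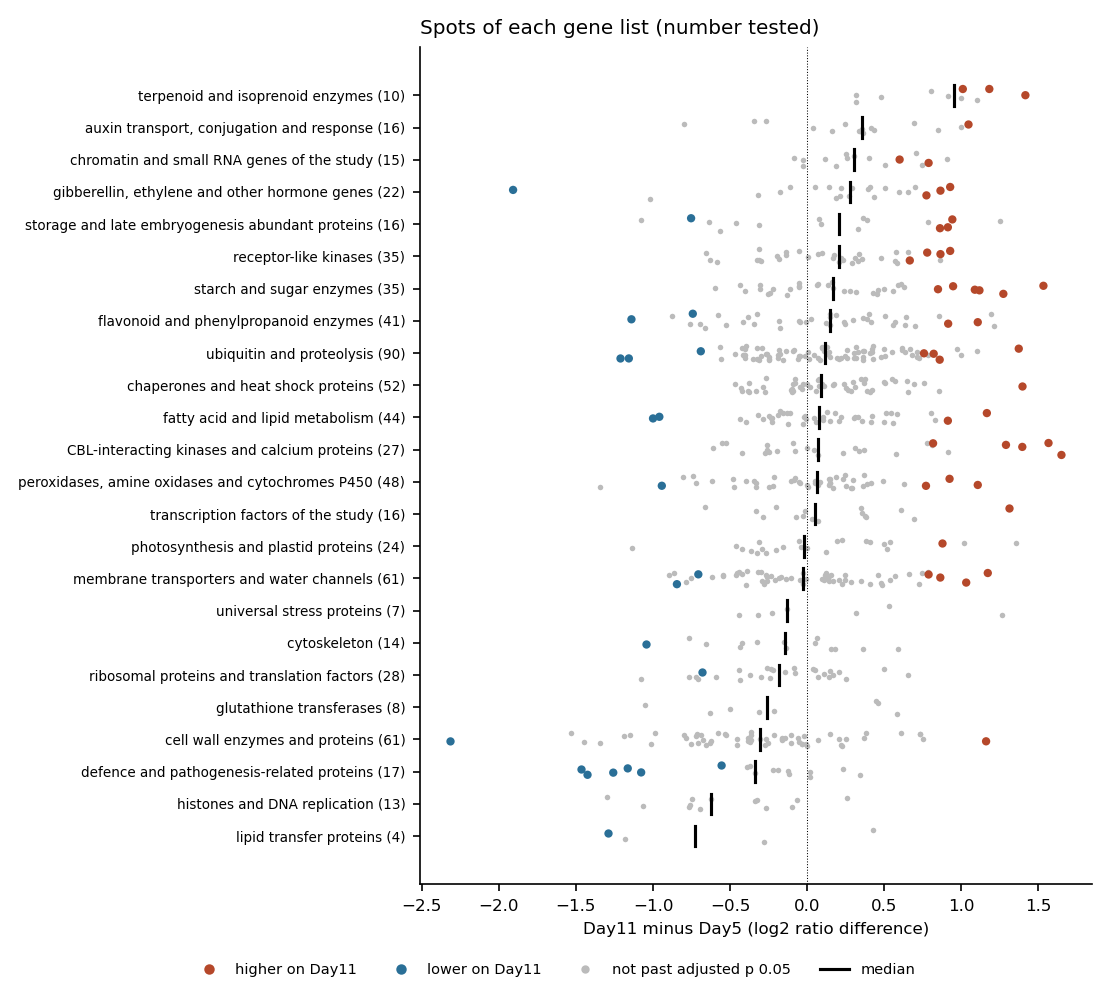
Difference of Day11 minus Day5 (log2, horizontal axis) for every tested spot of 24 gene lists, ordered by median (bars); coloured points passed an adjusted p of 0.05 in limma. Isoprenoid enzymes have a median of 0.96 with every spot above 0, while histones and DNA replication have a median of -0.63 with no called spot.

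Histones and DNA replication genes lay lower on Day11 without a call. Of 13 tested spots, 12 had a difference below 0 and the median was -0.63, against -0.002 for all tested spots, of which 49.7% lay above 0. Ribonucleotide reductase, which supplies deoxynucleotides for DNA synthesis, had 4 spots, all below 0. A small subunit spot (2.4.6.5) was at -0.87 and -0.74 on Day11. On Day5 it was at -0.49 in replicate 1 against 1.06 and 0.90 in replicates 2 and 3. Its difference of -1.30 did not pass (limma adjusted p = 0.0931). The other small subunit spot (10.1.16.4) had a difference of only -0.097 (limma adjusted p = 0.813).

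Of the 6 settings that left out a sample of these days, replication calls came only without Day5 replicate 1, a setting that raised calls over all spots too. There 4 of 9 testable spots were down-regulated (44.4%), against 5.55% of all named spots and 2.08% of all spots called lower in that setting. The small subunit spot 2.4.6.5 fell by 1.79 on the log2 scale (limma adjusted p = 0.00639), while the small subunit spot 10.1.16.4 could not be tested there. The others were the 2 large subunit spots (11.2.11.1 and 11.1.2.19), with differences of -1.08 and -1.02, and the large subunit of replication protein A (3.2.11.18), which binds single-stranded DNA, with -1.19. At the large subunit spot 11.2.11.1 the values were -0.30, -0.19 and 0.27 on Day11 and 0.00, 1.20 and 0.81 on Day5, where the days overlapped only through Day5 replicate 1. A histone H2AX spot (1.1.18.8) was at -0.95, -0.26 and 0.29 on Day11 and -0.10, 1.21 and 1.17 on Day5, the same arrangement. Another H2AX spot (3.4.8.10) went the other way, as the only list member above 0. Its difference was 0.26 (limma adjusted p = 0.292), and 0.375 without Day5 replicate 1, with no call in either. The minichromosome maintenance proteins MCM3 and MCM5, of the replicative helicase, had differences of -0.33 and -0.27, without a call.

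Storage and late embryogenesis abundant (LEA) proteins, which protect the drying seed, moved in both directions. Of 16 tested, 3 were up-regulated, 1 down-regulated and 12 did not pass, with a median of 0.21. That was 25% called, against 8.1% of named spots. The rises were spots named after LEA proteins, at 0.94 (2.4.9.7), 0.91 (6.3.19.24) and 0.86 (1.4.19.24). The entries of 2.4.9.7 also read structural constituent of cell and those of 6.3.19.24 phospholipase A2, so their place in the list is uncertain. At 6.3.19.24 the Day11 samples were at -0.22, -0.20 and -0.20 and the Day5 samples at -0.996, -1.27 and -1.09, tight on both days. Dehydrin 1 (6.1.19.8) was lower, at -1.01, -1.07 and -0.91 on Day11 and -0.08, -0.37 and -0.29 on Day5, a difference of -0.75 (limma adjusted p = 0.044) that was lost without any 1 of the 6 samples. Both glutelin-type storage protein spots had differences below 0, -1.07 (8.4.21.5) and -0.57 (4.1.2.22), neither past the test. A spot whose table entries read both unknown and ABA-responsive LEA-like (9.3.15.8) was among the named falls, at -1.26 (limma adjusted p = 0.0194).

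Hormone genes other than auxin had 3 rises and 1 fall of 22 tested (18.2%, against 8.1% of named spots called), the fall being the gibberellin induced protein. The rises were 2 receptor-like kinase spots, by 0.93 (9.3.11.14) and 0.86 (4.1.6.19), and an ethylene-responsive element binding factor, by 0.77 (12.1.21.6). The tables name both kinases after the brassinosteroid co-receptor BAK1, but their *Arabidopsis* best matches are other leucine-rich repeat kinases (AT5G10290 and AT1G60800), so that their place among hormone genes is uncertain. The first kinase spot was at 0.85, 0.94 and 0.78 on Day11 and -0.01, 0.03 and -0.25 on Day5, with no overlap. Both spots were also among the 4 up-regulated receptor-like kinases of 35 tested (11.4%, against 8.1% of named spots called), a list with no fall and a median of 0.21. The abscisic acid receptor PYL8 had 2 spots at 0.70 and 0.59 that did not pass.

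In the auxin list, 1 of 16 was up-regulated, a dormancy/auxin associated-like spot (10.1.19.9), at 0.73, 0.68 and 0.47 on Day11 and -0.45, -0.33 and -0.49 on Day5. Its difference was 1.05 (SE 0.15, limma adjusted p = 0.0129), and it passed in 4 of the 6 settings that left out a sample of these days. A second spot of that name (2.1.2.14) had a difference of -0.80 (limma adjusted p = 0.0967), so the name covers transcripts that did not move together. An IAA-amino acid hydrolase (10.1.8.7), which frees auxin from its conjugates, had a difference of 1.00 and stayed outside the threshold (limma adjusted p = 0.0546). The list's median was 0.36 and 13 spots (81.2%) lay above 0, against 0.08 and 55.7% over all named spots. Its share called, 6.25%, was near the 8.1% of named spots.

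Membrane transporters had 4 rises and 2 falls of 61 tested and a median of -0.03. At 9.84% called they lay near the 8.1% of named spots. A lysine/histidine transporter (6.3.6.6) of amino acid uptake was at 1.19, 1.18 and 0.75 on Day11 and 0.38, -0.14 and -0.64 on Day5, a difference of 1.17, and a second such spot (1.3.5.15) rose by 0.86. A nodulin family protein of the major facilitator type (5.2.23.18) rose by 1.03 (limma adjusted p = 0.00809), and a monosaccharide transporter (4.3.4.19) by 0.79. Lower on Day11 were an ERD6-like sugar transporter (5.4.2.7, -0.85) and a NIPA2-like magnesium transporter (5.2.11.20, -0.71). Sugar carriers thus appeared on both sides.

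In the flavonoid and phenylpropanoid list, 2 of 41 were up-regulated and 2 down-regulated (9.76% called, near the 8.1% of named spots). The rises were a flavonoid 3'-hydroxylase (3.3.2.15), a P450 of flavonoid synthesis, by 1.11 and a flavonoid glucosyltransferase (2.1.5.21) by 0.92. The falls were the caffeoyl-CoA O-methyltransferase above and a pinosylvin synthase of the stilbene branch (5.4.3.1), by 0.74 on the log2 scale. A pair of spots of the same unigene (11.2.15.9 and 5.3.6.8), named anthocyanidin reductase, had differences of 1.21 and 1.20. Neither passed, with limma adjusted p of 0.0546 and 0.0829, and their *Arabidopsis* best match is dihydroflavonol 4-reductase. At 11.2.15.9 the Day5 samples were spread widely, with Day11 at 0.25, -0.24 and 0.08 and Day5 at -0.76, -0.81 and -1.97. Another spot of that name (4.2.16.10), whose best match is anthocyanidin reductase itself, had a difference of -0.0045 (limma adjusted p = 0.994).

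Lipid genes also showed both directions, with 2 rises and 2 falls of 44 tested (9.09% called, near the 8.1% of named spots). A thioesterase-like spot (2.3.5.19) rose by 1.17 (limma adjusted p = 0.0162). The falls were a GDSL-like lipase (10.1.4.11), which fell by 1.00 on the log2 scale, and the SDP1-like triacylglycerol lipase (2.2.6.11), which fell by 0.96. SDP1 breaks down stored oil in *Arabidopsis*. Leaving out Day5 replicate 1 gave 5 rises and no fall among 40 tested, a share of 12.5% called higher that lay near the 11.7% of all named spots in that setting.

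The ubiquitin and proteolysis list, the largest with 90 tested spots, held 4 rises and 3 falls. At 7.78% called it lay near the 8.1% of named spots. Besides the spots named above, the rises included the 26S proteasome subunit RPN10 homologue (10.2.12.9, 0.86), an F-box protein (1.1.14.11, 0.82) and an OTU-like cysteine protease (12.4.8.8, 0.76). A cysteine proteinase (5.3.1.3, -0.69) was lower. Without Day5 replicate 1, 13 were called higher and 2 lower of 79 tested, which at 19% called was near the 17.2% of all named spots in that setting.

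The remaining lists held few calls, to be read against the 8.1% of named spots called. Of peroxidases, amine oxidases and cytochromes P450, 3 of 48 were up-regulated, an ent-kaurenoic acid oxidase of gibberellin synthesis among them (3.2.17.6, 0.92), and a cationic peroxidase (4.1.11.1) was down-regulated, at -0.94. A profilin (2.1.14.14), which binds actin monomers, was the only call of 14 cytoskeleton spots, at -1.04. A ribosomal protein S7e spot (12.4.21.18) was the only call of 28 ribosomal and translation spots, at -0.68. A light-harvesting chlorophyll a/b binding spot (11.3.2.9) was the only call of 24 photosynthesis spots, at 0.87, and the BAG7-like protein the only call of 52 chaperones. Neither the 8 glutathione transferases nor the 7 universal stress proteins held a call, although without Day5 replicate 1 2 rises and 2 falls were called among the 8 glutathione transferases, against 17.2% of all named spots.

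Among spots without a gene name, 3.3.8.1 had the largest rise of all tested spots, at -0.38 and -0.07 on Day11 and -1.81 and -2.33 on Day5, a difference of 1.84 (limma adjusted p = 0.0147), called in all 23 alternatives that could test it. None of these left out a sample of Day5 or Day11 in which it had a value. Spot 10.3.1.3 was lower, at -1.01, -1.35 and -1.50 on Day11 and 0.62 and 0.87 on Day5, a difference of -2.03 (limma adjusted p = 0.027). It was called in no setting that left out a sample of these days. Of the 66 up-regulated and 45 down-regulated 2-fold spots, 38 and 19 had a name.

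The chosen spots were then followed over the other days, whose samples entered the choice only through the shared spread. Over the 66 up-regulated spots, the median log2 ratio was -1.33 on Day0, -0.87 on Day5, 0.46 on Day11, 0.70 on Day15 and 0.91 on Day25. Over the 45 down-regulated spots, it was 0.37 on Day0, 0.28 on Day5, -0.99 on Day11, -1.29 on Day15 and -1.73 on Day25. In both sets the later days thus lay on the same side as Day11 and the earlier day on the same side as Day5. The gap between Day5 and Day11 is set by the choice of the spots and is a description only.

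Single samples filled in this picture. The medians of the up-regulated set were 0.40, 0.47 and 0.34 in the Day11 samples and -0.43, -0.78 and -1.09 in the Day5 samples. Those of the down-regulated set were -1.185, -0.86 and -0.87 on Day11 and 0.07, 0.15 and 0.66 on Day5. In each set Day5 replicate 1 was the Day5 sample nearest to Day11 and Day5 replicate 3 the farthest.

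Individual genes took different courses after Day11. CCD1 averaged -1.71 on Day0, -0.38 on Day5, 1.03 on Day11, 1.35 on Day15 and 0.20 on Day25, and CIPK6 -1.50, -0.86, 0.71, 0.85 and 0.44 on the same days, both lower again in mature embryos. The HMG-CoA reductase spot 2.4.19.9 had its lowest mean on Day5, at -1.12, with -0.50 on Day0, 0.07 on Day11, 0.41 on Day15 and 1.36 on Day25. The basic chitinase spot 4.4.22.2 had its lowest mean on Day11. No test between these other days was made here.

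**Figure D5:**
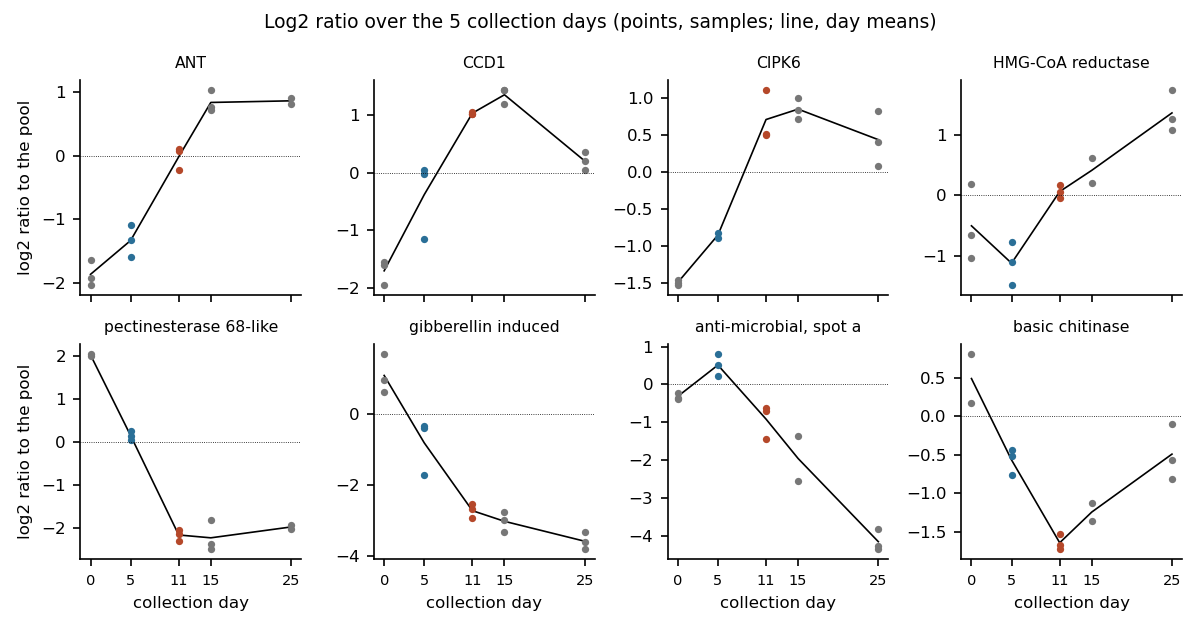
Log2 ratio to the pool (vertical axis) by collection day (horizontal axis) for 8 spots; points are samples, with Day5 and Day11 coloured, and lines join day means. ANT keeps a high level after Day11, CCD1 and CIPK6 are lower again on Day25, and the pectinesterase 68-like spot averages -2.16 on Day11, far below 2.03 on Day0.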

How the data were processed

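Members and gene lists were chosen with earlier results of these data known. Spot and background intensities in both channels are the raw readings of scanned slides (ImaGene, ProScanArray), which the authors deposited as they were. Log2 ratios of embryo over pool were made and deposited by the authors with limma (no background correction, print-tip loess over 48 print tips, cyclic loess). Quality marks, another kind of value in the files the authors deposited, are 1 for a kept spot. No aligner or genome is involved.

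The deposited log2 ratios were used here. Technical arrays were averaged per sample, a spot needed values in 2 of 3 samples on both days, and no filter on low values was set. Day means of all 15 samples were fitted with limma 3.58.1 (eBayes) under R 4.3.3, statmod being at 1.5.0, and p was adjusted over 16901 spots by Benjamini-Hochberg. SE is that of the fit. Calls needed an adjusted p under 0.05, and 2-fold calls also a log2 difference of 1. The fit was tested on simulated data.

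Named spots followed a rule. It took all spots of the study's tables of chromatin genes and of transcription factors; the 15 largest rises and 15 largest falls at 2-fold with separate samples and an informative name; the 2 largest calls of each list; other spots of the same unigene; and unnamed spots only among the 3 largest changes each way. Members of gene families, and other list members given with values, were picked after their values were seen. Names came from the study's tables for 2398 spots, 1893 of them in tables of changed spots, and the lists were made from words in the names. The authors' tables of fold changes were used only for names.

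Alternatives covered the source of the ratios, background correction (normexp, offset 50), within- and between-array normalization, quality marks, samples in the fit, technical replicates, values needed, dim spots (under the 0.25 quantile of brightness), weights, moderation, the replicate number as a block and each sample left out. An alternative over all spots of the intensities was chosen after seeing the data. Spots without a deposited ratio, 6819, were otherwise not analysed here.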

Additional observations from a re-analysis of the deposited data

How the results depend on the processing

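Results are given in the order all calls, 2-fold calls, 2-fold rises and 2-fold falls, which are 302, 111, 66 and 45 as reported. Ratios recomputed from the intensities, normexp, no between-array step, omission of dim spots and robust moderation stayed within 1.5 times of all 4. With 1 loess per array there were 193 calls in all. Scaled log2 ratios gave 1334, 276, 169 and 107. No filter on quality marks gave 563 calls in all, over 19677 spots. The 6 samples of Day11 and Day5 alone gave 765, 169 and, for falls, 73. The 30 arrays with an estimated technical correlation gave 1007, 221, 126 and 95. Values in all 3 samples on both days left 11066 spots to test, with 69 2-fold calls and 24 falls. Array quality weights, which gave Day11 replicate 2 a weight of 3.32 and Day5 replicate 1 a weight of 0.71, gave 3535, 231, 141 and 90. Where no smaller number of spots or samples shows it, the cause was not tested.

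The replicate number as a block gave 562 calls, 167 at 2-fold and 100 rises. Deviations of samples with the same number correlated at 0.08, -0.08 and 0.03, and those with different numbers at -0.12 to 0.12. With 3 samples a day, these values cannot decide whether the numbers mark a pairing. Leaving out 1 of the 15 samples in turn gave 4 to 824 calls, 4 to 272 at 2-fold, 3 to 176 rises and 1 to 96 falls. Samples of other days mattered through the shared spread: 589 calls without Day0 replicate 1, 168 without Day0 replicate 3, 521 without Day25 replicate 1 and 193 without Day25 replicate 2. Some uncalled named spots with small differences changed sign, such as HDA2 (11.2.17.19), at -0.047 with 1 loess per array against 0.26 as reported, but no named spot did so where either setting called it. Of the 51 called spots named by the rule, all kept their sign in each of the 28 other settings that could test them. Among them, 8 were called in every setting that could test them: ANT, the pectinesterase 68-like spot, CIPK6, thiamine pyrophosphokinase, both CHY- and RING-type zinc fingers, quinone reductase 5.2.21.4 and unnamed 3.3.8.1. With separate days, leaving out a sample of these days cannot change the sign. Of the 8, only ANT and the pectinesterase 68-like spot could be tested without each of the 6 samples of these days. CIPK6 and thiamine pyrophosphokinase could not be tested without Day5 replicate 2 or 3. The others could be tested only without samples in which they had no value. All spots of the intensities, chosen after seeing the data, gave 321, 129, 68 and 61. A scan or slide block was not run, since the headers give none. The number of arrays limits how small a difference could be called.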
